A study of Caenorhabditis elegans with 12 samples.

Results

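The genes described here encode the proteins of the cytosolic ribosome of the nematode Caenorhabditis elegans. Members were taken by name: every gene whose symbol is rpl- or rps- followed by a digit, together with rla-0, rla-1 and rla-2, with at least 60 counts over the 12 libraries. The rule found 81 genes among the 46904 in the table, 47 of the large subunit, 31 of the small subunit and 3 of the stalk. No gene of these names fell under the minimum. The gene just inside it was rpl-42 with 65 counts, and the next lowest, rpl-24.2, had 8360. All 81 were annotated as protein coding and entered the tests. By the Ensembl annotation of WBcel235 they lay on every chromosome, 25 on I, 18 each on III and IV, 10 on II, 8 on V and 2 on X, the last being rpl-11.2 and rpl-25.1.

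Each ribosome carries a single copy of most of its proteins, bound to ribosomal RNA in a small subunit that decodes messenger RNA and a large subunit that forms peptide bonds. The acidic stalk of the large subunit (P0, P1 and P2, encoded by rla-0, rla-1 and rla-2) recruits the elongation factors. Transcripts of these genes are among the most abundant in growing and reproducing animals, and oocytes are provisioned with ribosomes for the embryo. PMK-1 is a p38 mitogen-activated protein kinase best known in the worm for immunity in the intestine and for stress responses.

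Whole animals on the first day of adulthood were kept for 4 h without bacteria in a solution of 100 mM NaCl or 100 mM KCl. The strains were N2, the wild type, and pmk-1(km25), a strain with a mutation of pmk-1, and each of the 4 groups has 3 libraries from about 1000 animals each. The solutions differ in both cations, all groups were without food, and no group was left on plates, so neither salt can be set against an untreated state. The mutant is represented by 1 allele in 1 strain. Nothing in the labels says whether the biological replicates were separate cultures, so the p-values measure only the spread between these libraries. The data are RNA levels of whole animals: a larger share of a cell type and more RNA per cell cannot be told apart.

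Library totals ran from 8931797 to 11445709 counts. The pmk-1 gene was counted 308 to 358 times in KCl and 217 to 441 times in NaCl in wild type, and 206 to 242 times in KCl and 180 to 231 times in NaCl in the mutant, so the mutant still held transcript that maps to the gene. Levels are TMM-scaled counts per 1e+06 counts of a library (CPM). Fold changes are on the log2 scale with their standard error after ±, from the edgeR quasi-likelihood test fitted over 13353 genes with Benjamini-Hochberg adjusted p-values and n = 3 libraries per group. A gene is called at an adjusted p under 0.05. Groups are said not to overlap where all 3 libraries of a group lie above all 3 of the other.

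Ribosomal protein transcripts made up a large part of each library. Their share of all counts was 9.34, 8.88 and 6.85% in KCl and 10.02, 9.23 and 8.29% in NaCl in wild type, and 10.97, 9.41 and 10.9% in KCl and 13.2, 11.15 and 10.8% in NaCl in the mutant. All pmk-1 NaCl libraries lay above all wild-type libraries, and all pmk-1 KCl libraries lay above wild-type KCl, the nearest pair being 9.41 and 9.34%. The salts overlapped in each genotype. The group means were 8.36 ± 1.33% (SD, n = 3), 9.18 ± 0.862%, 10.4 ± 0.886% and 11.7 ± 1.28% in the same order. Between 29 and 46 of the 100 genes with the most counts in a library were ribosomal protein genes. The shares of the large subunit, small subunit and stalk genes moved together: in the same order of groups the large subunit took 4.57, 5.01, 5.66 and 6.36% of counts and the small subunit 3.36, 3.69, 4.21 and 4.71%.

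**Figure D1:**
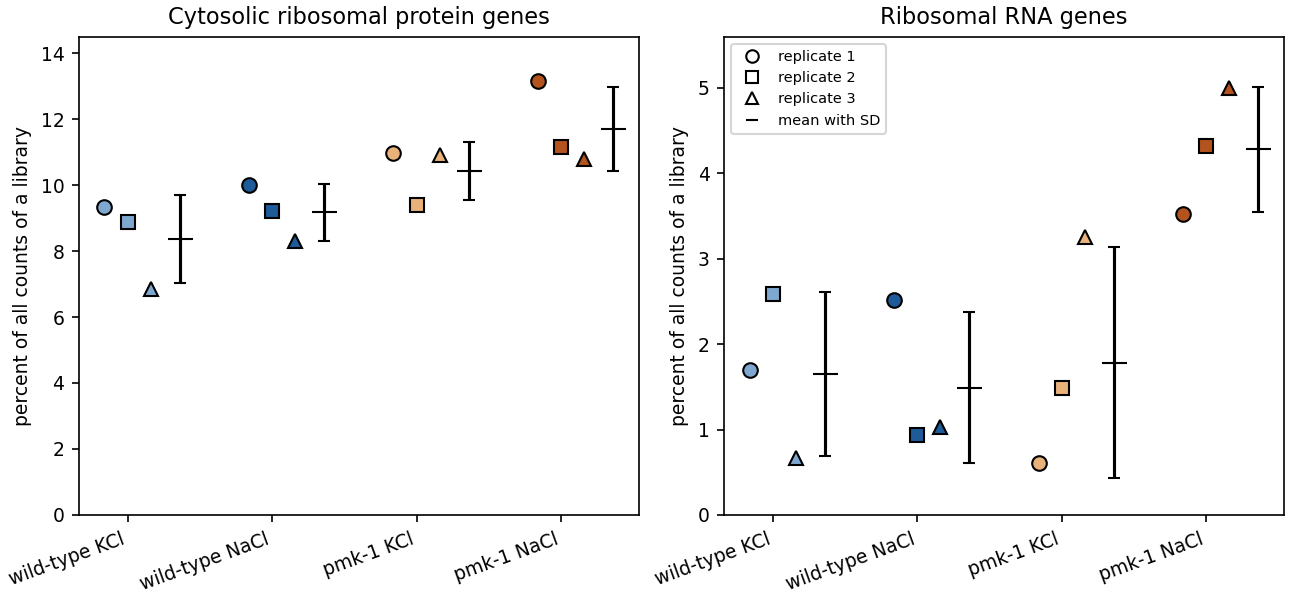
Percent of all counts in a library that fell on the 81 cytosolic ribosomal protein genes (left) and on 5 ribosomal RNA genes (right), for 4 groups of 3 libraries. Markers are libraries by replicate number and bars are means with SD. The lowest ribosomal protein share was 6.85% in wild-type KCl replicate 3 and the highest 13.2% in pmk-1 NaCl replicate 1.

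Both of these libraries stood apart in nearly every gene of the family. A score for each library, the mean over 80 genes of the log2 CPM centred on each gene's mean (rpl-42 left out), was -0.10, -0.16 and -0.63 in KCl and 0.07, -0.10 and -0.26 in NaCl in wild type, and 0.11, -0.19 and 0.15 in KCl and 0.55, 0.30 and 0.25 in NaCl in the mutant. Wild-type KCl replicate 3 was thus the lowest and pmk-1 NaCl replicate 1 the highest. Across the 12 libraries the level of a gene followed the mean of the other members closely, with a median Pearson r of 0.973 and 74 of 81 genes over 0.9. These correlations describe 12 libraries that share their scaling, and carry no test. The genes that followed the rest least were rpl-41.1 (r = -0.411), rpl-42 (0.751), rpl-24.2 (0.797) and rpl-7A (0.846).

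**Figure D2:**
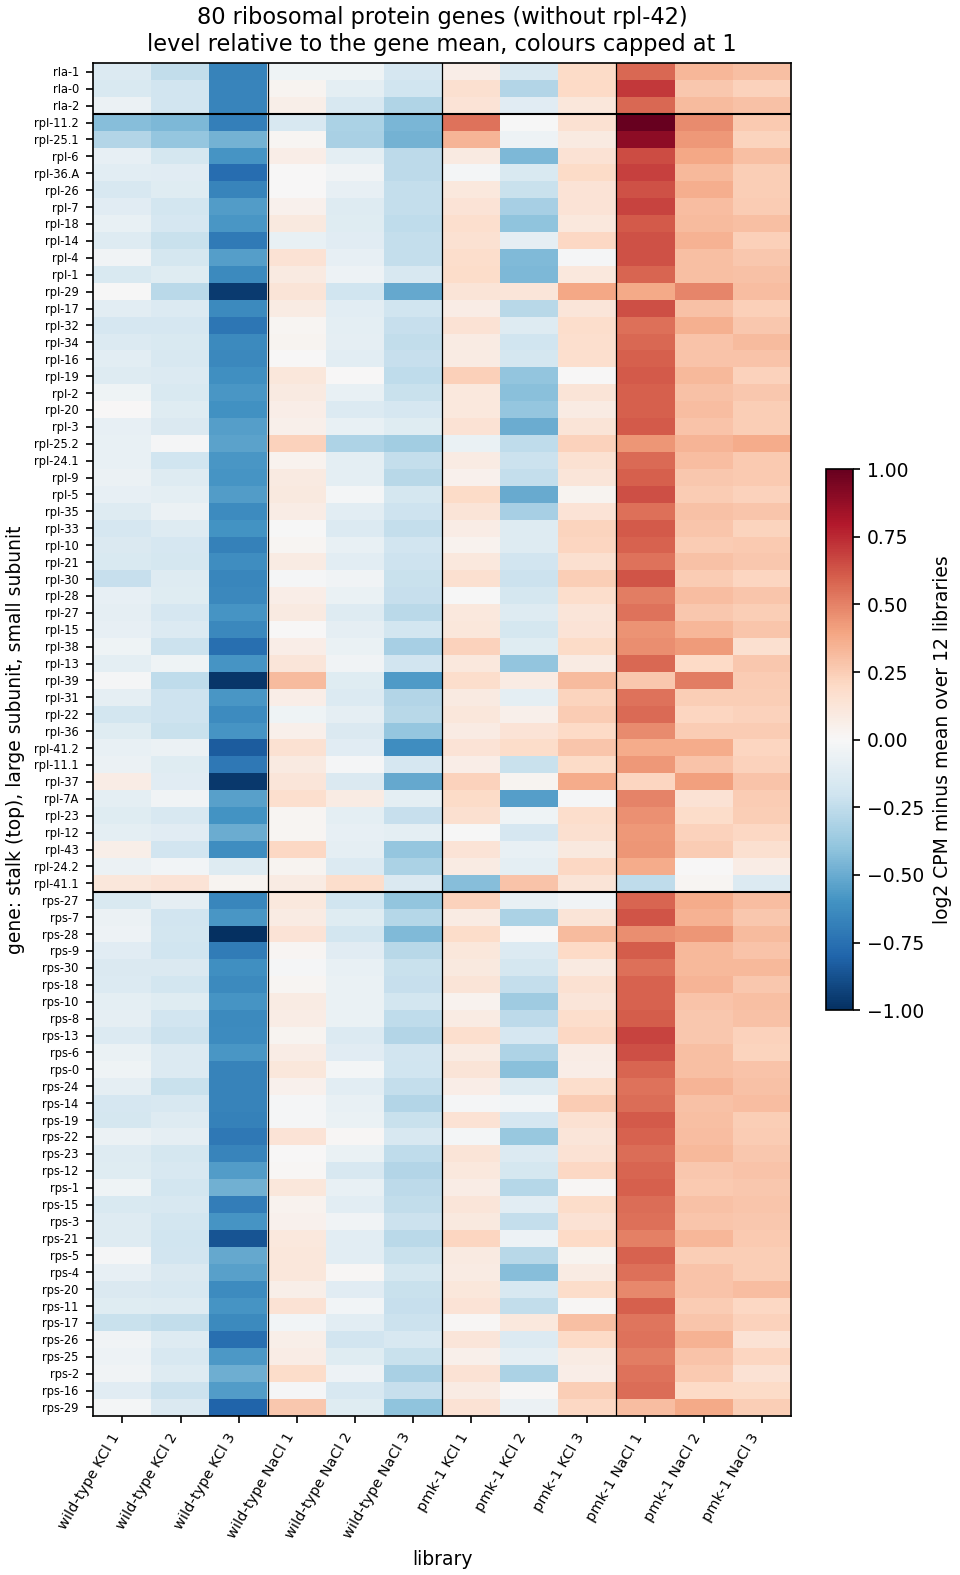
Level of 80 ribosomal protein genes (rows: stalk, large subunit, small subunit; rpl-42 left out) in 12 libraries (columns), as log2 CPM minus the gene's mean over the libraries, with colours capped at 1 and -1. Most rows share a column pattern, low in wild-type KCl replicate 3 and high in pmk-1 NaCl replicate 1, and the row of rpl-41.1 does not follow it.

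Ribosomal RNA was counted too, from 5 genes, and differed between libraries. It took 0.671 to 2.59% of counts in KCl and 0.931 to 2.51% in NaCl in wild type, and 0.605 to 3.26% in KCl and 3.52 to 4.997% in NaCl in the mutant, the last group lying above all others. As a share of the counts outside ribosomal RNA, the ribosomal protein genes reached 8.50, 9.32, 10.6 and 12.2% in the 4 groups, so their order among the groups was kept.

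Levels differed far more between genes than between groups. Per kilobase of exon, most genes lay within a narrow band around a median of 2219 CPM per kb. The highest were rps-25, a small-subunit protein, at 4028 CPM per kb, rps-23, which sits at the decoding centre, at 3672, and rpl-41.2, which encodes the smallest ribosomal protein, at 3491. Of the stalk genes, rla-1 (3265) and rla-0 (3261) were nearly level, and rla-2 was at 1038. The lowest 5 were rpl-37 at 307, rpl-41.1 at 272, rpl-25.1 at 270.3, rpl-24.2 at 124 and rpl-42 at 0.817 CPM per kb. Among these low genes, rpl-24.2 is related to the yeast assembly factor Rlp24, which holds the place of a ribosomal protein in maturing large subunits, and rpl-11.2, at 523 CPM per kb, and rpl-25.1 are second copies of proteins with a more abundant copy elsewhere. In the annotation, rpl-37 and rpl-24.2 each overlap a gene on the opposite strand (pitp-1 and C03D6.1), and the strandedness of the counts is not given, so their levels are uncertain.

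**Figure D3:**
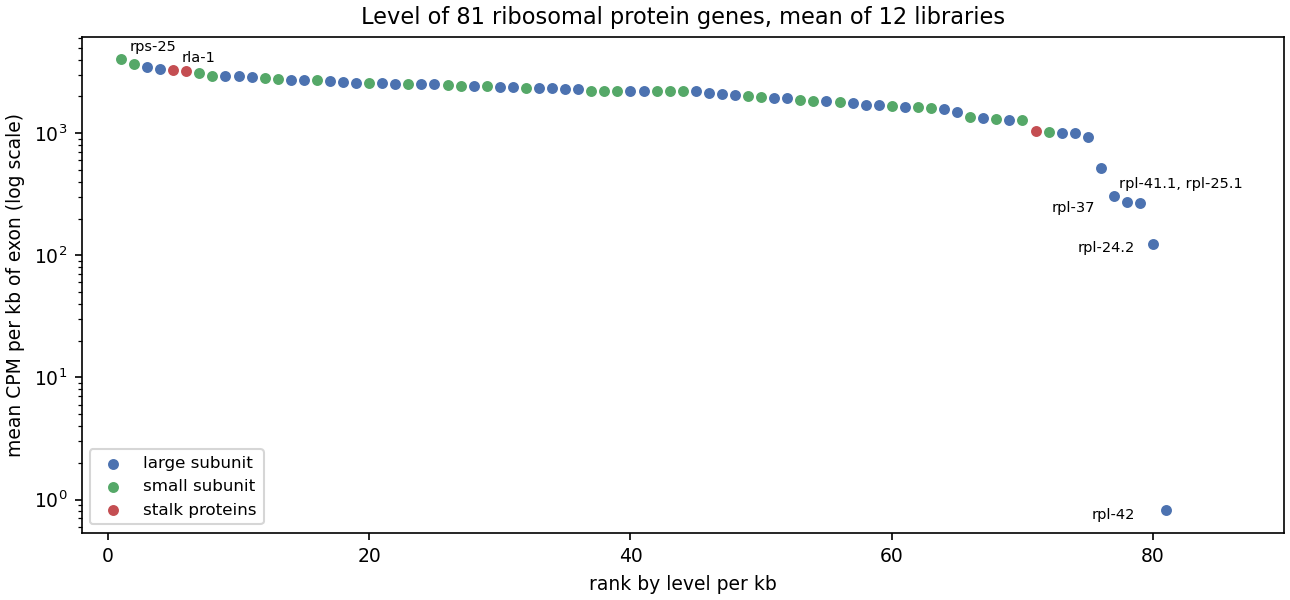
Mean CPM per kilobase of exon over 12 libraries (log axis) against rank for the 81 ribosomal protein genes, coloured by subunit. Most genes lie near the median of 2219 CPM per kb, a group of low large-subunit genes falls away from 523 (rpl-11.2) to 124 (rpl-24.2), and rpl-42 stands alone at 0.817.

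In wild type, the ribosomal protein genes were slightly higher in NaCl than in KCl as a family, and no member passed the test. Of the 80 members with counts in these groups, 78 had a positive fold change, and the median over 81 was 0.19, with quartiles of 0.16 and 0.21, beside -0.01 for all genes tested. The median was 0.18 for the large subunit, 0.20 for the small subunit and 0.23 for the stalk. None of the 81 was called higher or lower by edgeR or DESeq2, against 0.172% of all genes called higher. None had an unadjusted edgeR p under 0.05 in either direction, against 2.94% of all genes higher at that level.

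The highest fold changes in wild type belonged to rps-21, rpl-39 and rpl-7A. For rps-21, a small-subunit protein, the levels were 368, 350.5 and 221 CPM in KCl and 434, 374 and 334 CPM in NaCl. The third KCl library was the low one, and the groups overlapped (log2 fold change 0.28 ± 0.18, edgeR adjusted p = 1.00). For rpl-39, which lines the exit tunnel of the large subunit, KCl gave 210.2, 178 and 108 CPM and NaCl 265, 195 and 143 CPM, again overlapping (log2 fold change 0.28 ± 0.24). The levels of rpl-7A were 1382, 1437 and 1012 CPM in KCl and 1659, 1566 and 1382 CPM in NaCl, and here too the groups overlapped (log2 fold change 0.27 ± 0.20). The negative values belonged to rpl-24.2 (-0.06 ± 0.13) and rpl-41.1 (-0.05 ± 0.16), both smaller than their standard errors, and rpl-42 had no count in wild type.

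Only rps-17, a small-subunit protein, had non-overlapping groups in wild type, with 761, 750.5 and 571 CPM in KCl and 873, 827 and 764 CPM in NaCl (log2 fold change 0.24 ± 0.14). That is 1.23% of the members, against 6.93% of all genes with NaCl above KCl. The number of such members was 42 without wild-type NaCl replicate 3, against 13.4% of all genes. It was 4 and 3 without wild-type KCl replicates 1 and 2, against 12.4 and 10.7% of all genes. The median fold change was 0.05 without wild-type KCl replicate 3 and 0.12 without wild-type NaCl replicate 1. Taken by replicate number, the difference of the scores was 0.17, 0.06 and 0.37, with 79, 70 and 78 of 80 genes higher in NaCl.

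In pmk-1 animals the family was also higher in NaCl, with a higher median, and again no member was called. A positive fold change was found for 80 of 81 genes, with a median of 0.36 (large subunit 0.37, small subunit 0.35, stalk 0.37) beside -0.01 for all genes. The adjusted test called 2.33% of all genes higher and none of the members, in edgeR as in DESeq2. At an unadjusted edgeR p under 0.05, 31 members (38.3%) were higher and none lower, against 8.84% of all genes higher. The groups did not overlap for 63 members (77.8%), against 9.78% of all genes.

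The highest fold change among abundant members was that of rpl-6, a large-subunit protein. It had 1869.8, 1287 and 1934 CPM in pmk-1 KCl and 2759.5, 2295 and 2166 CPM in pmk-1 NaCl. All NaCl libraries lay above all KCl libraries, with the second KCl library low and the first NaCl library high (log2 fold change 0.50 ± 0.19, edgeR adjusted p = 0.253). The next, rpl-4, which reaches into the exit tunnel, had 2985, 1952 and 2629 CPM in KCl and 4121, 3254 and 3192 CPM in NaCl, with the same low and high libraries and no overlap (log2 fold change 0.48 ± 0.20, adjusted p = 0.306). At the other end stood rpl-41.1 (-0.14 ± 0.16), rpl-37 (0.09 ± 0.23) and rpl-24.2 (0.09 ± 0.13), none of which differed beyond its standard error.

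The size of this difference moved with single libraries. The median fold change was 0.19 without pmk-1 NaCl replicate 1 and 0.23 without pmk-1 KCl replicate 2, and no member then had an unadjusted p under 0.05. That count was 2 without pmk-1 NaCl replicate 2, 14 without pmk-1 NaCl replicate 3, 20 without pmk-1 KCl replicate 3, 16 without wild-type NaCl replicate 2 and 53 without wild-type KCl replicate 3. It was 5 without the ribosomal RNA genes, which were highest in the pmk-1 NaCl libraries, and 4 with the members left out of the scaling. Without the first replicates 2 members were higher and 1 lower, with a median of 0.23. The count was 11 with only the groups compared in the fit, 18 with DESeq2's size factors in edgeR and 51 with the replicate number as a block. By replicate number, the scores differed by 0.44, 0.49 and 0.10, with 79, 79 and 68 of 80 genes higher in NaCl.

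Marker lists of several tissues, though not of all, also had positive medians in the salt comparisons. Body wall muscle genes, 8 in all, had medians of 0.31 in each genotype, with 8 positive values in wild type and 7 in pmk-1, and summed levels of 3306 to 6069.8 and 4963 to 6924 CPM in wild-type KCl and NaCl and 5200.1 to 10371 and 8099 to 10112 CPM in the mutant. The 8 intestinal genes had medians of 0.23 in wild type and 0.28 in pmk-1, with 5 and 7 positive values. In pmk-1, act-5, an actin of the intestinal brush border, was called (1.46, edgeR adjusted p = 0.00887). The lowest fold changes of the 8 genes were -0.93 in wild type and -0.59 in pmk-1. Their summed levels were 30046 to 34199 and 35659.5 to 41385 CPM in wild-type KCl and NaCl and 21174 to 30132 and 29149 to 34509.8 CPM in the mutant. The 17 sperm genes had medians of 0.52 and 0.55, with 16 and 17 positive values and none called. The 9 embryonic genes tested had medians of -0.25 and -0.22, with 0 and 3 positive values. The 12 oocyte and germline genes had medians of 0.01 and -0.04. The part of these lists in the salt differences of the ribosomal protein genes was not tested.

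Whether the family responded to the salts differently in the 2 genotypes was tested by the interaction term. No member was called, and none had an unadjusted p under 0.05 with edgeR or DESeq2, where 0.0374% of all genes were called higher and 3.29% had an unadjusted p under 0.05 in that direction. The median interaction was 0.16 over the members and -0.01 over all genes, with rpl-6 (0.33 ± 0.27) and rpl-25.2 (0.33 ± 0.27) the highest abundant members and rpl-39 (-0.12 ± 0.34) the lowest. Without pmk-1 NaCl replicate 1 the median was -0.01, and without pmk-1 KCl replicate 2 it was 0.02. Other libraries moved it too: it was 0.07 and 0.10 without wild-type KCl replicates 1 and 2, 0.27 without wild-type KCl replicate 3, and 0.10 without wild-type NaCl replicate 3. Without the first replicates it was 0.00627, with 42 of 80 values positive, and with the members left out of the scaling it was 0.10. The larger fold changes in pmk-1 than in wild type were therefore not shown to be a difference between the genotypes.

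**Figure D4:**
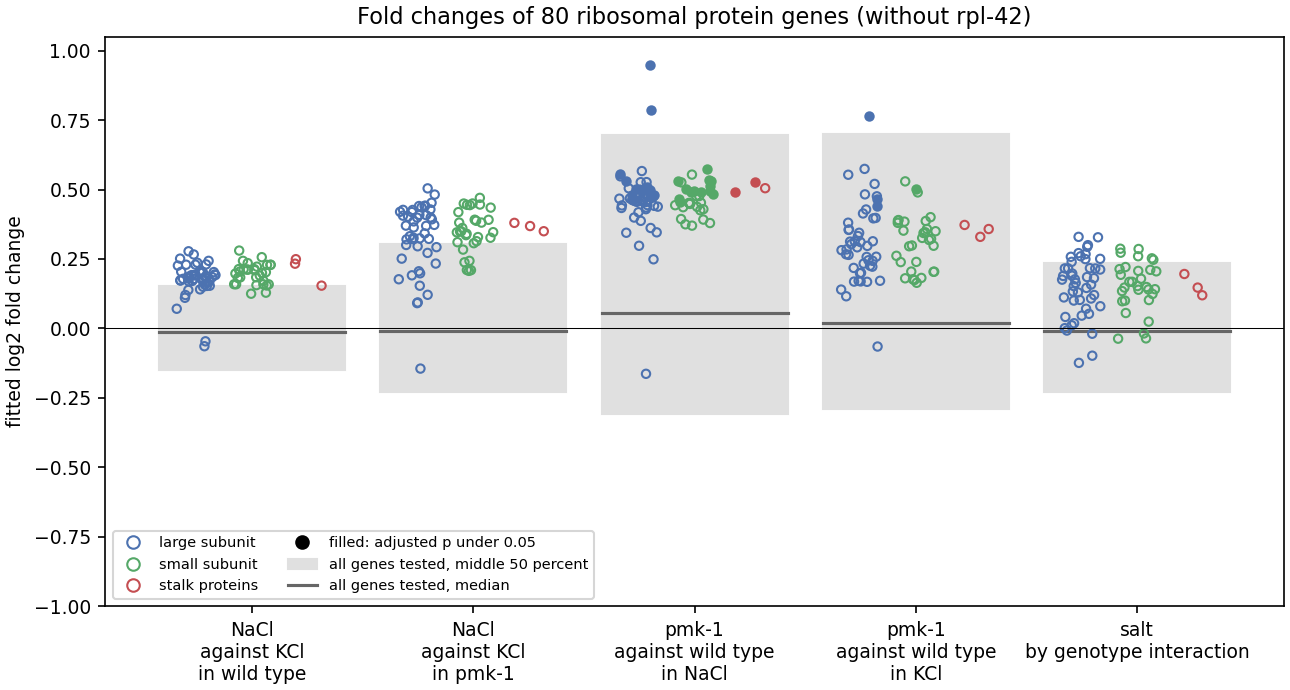
Fitted log2 fold changes of 80 ribosomal protein genes (rpl-42 left out) in the 5 comparisons, coloured by subunit and filled where the edgeR adjusted p was under 0.05. Grey boxes span the middle 50% of all genes tested and grey lines their median. In the salt and genotype comparisons 78 or 79 of the 80 members lie above the median of all genes, and in the interaction 74 do. Among these, called members appear in the genotype comparisons alone, with rpl-11.2 and rpl-25.1 highest in NaCl.

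Comparing the genotypes in NaCl, the ribosomal protein genes were higher in pmk-1 than in wild type, and 28 of 81 rose past the test, or 27 of 80 without rpl-42. That gene had counts in the mutant libraries alone and met the minimum of the member rule only through them, so its call is no support. The 28 were 13 large-subunit, 13 small-subunit and 2 stalk genes. None was called lower. The median fold change was 0.47 (0.46 for the large subunit, 0.47 for the small subunit and 0.50 for the stalk), also 0.47 without rpl-42, beside 0.06 for all genes, and 80 of 81 values were positive. The called members are 34.6% of the family, against 16.7% of all genes called higher in a comparison with many calls. The groups did not overlap for 74 (91.4%), against 29.1%. Without rpl-42 these shares are 33.75 and 91.25%.

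This comparison shares its pmk-1 NaCl libraries with the pmk-1 salt comparison. The stalk genes show the size of the change. P1, encoded by rla-1, had 1281, 1186 and 885 CPM in KCl and 1369, 1363 and 1253 CPM in NaCl in wild type, and 1470.4, 1261 and 1609 CPM in KCl and 2092, 1774 and 1737 CPM in NaCl in the mutant. Its pmk-1 NaCl libraries were the highest of all 12 and did not overlap wild-type NaCl (log2 fold change 0.49 ± 0.16, edgeR adjusted p = 0.0365). P2, encoded by rla-2, gave 439, 401 and 289 CPM in KCl and 477, 409 and 372 CPM in NaCl in wild type, and 502, 423 and 495 CPM in KCl and 681, 569 and 559 CPM in NaCl in the mutant. Its pmk-1 NaCl libraries were again the highest, and it was also called (0.53 ± 0.16, edgeR adjusted p = 0.0338). P0, encoded by rla-0, the anchor of the stalk, had 2948, 2865 and 2075 CPM in KCl and 3351, 3059 and 2861 CPM in NaCl in wild type, and 3666, 2683 and 3759 CPM in KCl and 5347, 3949 and 3858 CPM in NaCl in the mutant. Its groups did not overlap in NaCl, but the spread was wider and it missed the threshold (0.50 ± 0.20, edgeR adjusted p = 0.0741).

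Among the small-subunit genes, the lowest adjusted p was that of rps-30, whose protein is made as a fusion to a ubiquitin-like domain. Its levels were 832, 795 and 718 CPM in wild-type NaCl and 1228, 1048 and 1047 CPM in pmk-1 NaCl. The groups stood well apart, with the first pmk-1 library highest (log2 fold change 0.50 ± 0.15, edgeR adjusted p = 0.0267). The levels of rps-27, a zinc-finger protein of the small subunit, were 620.1, 500.0 and 438 CPM in wild-type NaCl and 862, 744 and 714 CPM in pmk-1 NaCl. Here too no library overlapped (0.57 ± 0.17, adjusted p = 0.0318). The change was near 0.5 throughout the other called small-subunit genes that come first by adjusted p: rps-12, rps-13 and rps-9 at 0.53, rps-14 of the platform at 0.51, rps-24 and the decoding-centre gene rps-23 at 0.49, and rps-17 at 0.47, with adjusted p from 0.0302 to 0.0420.

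The large-subunit genes were called over a wider range. The gene for the large-subunit protein L14, rpl-14, had 920.5, 894 and 821 CPM in wild-type NaCl and 1503, 1231 and 1145 CPM in pmk-1 NaCl, without overlap (0.56 ± 0.16, edgeR adjusted p = 0.0276). Fold changes of 0.48 to 0.53 were found for rpl-22, rpl-36, rpl-34, rpl-33 and rpl-26, with adjusted p from 0.0329 to 0.0394. The highest values of abundant genes belonged to the X-linked copies described next. The lowest belonged to rpl-41.1 (-0.16 ± 0.16), rpl-7A (0.25 ± 0.20) and rpl-24.2 (0.30 ± 0.13), with adjusted p of 0.460, 0.351 and 0.110.

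In NaCl the 2 members on the X chromosome, rpl-11.2 and rpl-25.1, had the highest fold changes of the abundant genes. The product of rpl-11.2 belongs to the large-subunit protein that binds the 5S ribosomal RNA, and most transcripts of this protein come from the copy rpl-11.1 on chromosome V, known for its role in the germ line. For rpl-11.2 the levels were 267, 263 and 224 CPM in KCl and 321, 288 and 261 CPM in NaCl in wild type, and 522, 358 and 399 CPM in KCl and 753, 498 and 429.5 CPM in NaCl in the mutant. Every pmk-1 library was above every wild-type library, whichever the salt. The log2 fold change was 0.95 ± 0.20 in NaCl (edgeR adjusted p = 0.00784) and 0.76 ± 0.20 in KCl (adjusted p = 0.0199).

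The second X-linked gene, rpl-25.1, is the minor copy of a protein at the mouth of the exit tunnel. It had 104.3, 98.2 and 92.2 CPM in KCl and 129.8, 102 and 92.4 CPM in NaCl in wild type, and 162, 124 and 137 CPM in KCl and 238, 173 and 149.7 CPM in NaCl in the mutant. The mutant lay above wild type in each salt with no overlap, and the change in NaCl passed the test (0.79 ± 0.18, edgeR adjusted p = 0.00985) while that in KCl did not (0.52 ± 0.18, adjusted p = 0.0555). Beside these, all 1799 tested genes on the X chromosome had a median of 0.18 in NaCl and 0.04 in KCl, and the 11536 tested genes on chromosomes I to V had 0.04 and 0.02. In NaCl, 251 of the X-linked genes were called higher and 272 lower. Grouping genes by chromosome was chosen after the members' values were seen.

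Between the genotypes the called number in NaCl moved with single libraries. It was 3, 3 and 13 without pmk-1 NaCl replicates 1, 2 and 3, 15, 3 and 2 without wild-type NaCl replicates 1, 2 and 3, 14 and 50 without wild-type KCl replicates 2 and 3, and 12 without pmk-1 KCl replicate 3. With the replicate number as a block, 65 members were called, and 57 with DESeq2. The share of all genes called in these fits is not given, so the counts were not set against it. They include rpl-42, which was called in each of these fits. Of the called genes other than rpl-42, rpl-11.2 kept its call without any of the 12 libraries, and rpl-25.1 lost it without wild-type NaCl replicate 3 alone (adjusted p = 0.0509). The 25 other called members each lost it without at least 4 libraries in turn. The median fold change, in contrast, stayed between 0.33 and 0.54 without any single library, and the difference of the scores by replicate number was 0.48, 0.40 and 0.51, with 78, 79 and 80 of 80 genes higher in pmk-1.

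Other measured features differed between the same groups. All 17 sperm genes examined, the major sperm protein genes among them, were called higher in pmk-1 in NaCl and 16 in KCl. Their summed level was 10.97 to 135 CPM in wild-type NaCl against 957 to 3119 in pmk-1 NaCl, and 7.02 to 84.7 against 820.0 to 1968 in KCl; up to 3 of them were at 0 in a wild-type library and none in the mutant. All 9 embryonic genes tested had negative fold changes in each salt, and 6 were called lower in NaCl and 5 in KCl. The summed level over the 10 listed was 269 to 334 CPM in wild-type NaCl and 129 to 213 in pmk-1 NaCl. None of 12 oocyte and germline genes was called, with medians of -0.40 and -0.32. Their summed level was 5915 CPM in pmk-1 NaCl replicate 1, the library highest in the ribosomal protein score and in sperm genes, and 8288 to 11397 CPM in the other 11 libraries.

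Markers of the body mostly had positive fold changes in the mutant as well. Body wall muscle genes had medians of 0.61 in NaCl and 0.71 in KCl, with all 8 positive in each and 1 and 2 called higher. Neuronal genes had medians of 0.41 and 0.55, with 7 of 8 positive and 1 called higher in each salt, and summed levels of 344 to 475 against 475 to 493 CPM in NaCl and 349 to 422 against 366 to 505 CPM in KCl. Epidermal genes had medians of 0.57 and 0.54, with 5 of 6 positive, and summed levels of 5329 to 6369.5 against 6703 to 7639 CPM in NaCl and 4946 to 5739.5 against 5927 to 7779 CPM in KCl. Of these, the adult cuticle collagen gene col-19 was called higher and the collagen gene dpy-7 lower in each salt. Intestinal genes had medians of 0.44 and 0.02, with 6 and 4 of 8 positive, and the intermediate filament gene ifb-2 was called higher in each salt. In NaCl their summed level was lower in the mutant without overlap, 35659.5 to 41385 CPM in wild type against 29149 to 34509.8 CPM. In KCl it was 30046 to 34199 CPM in wild type against 21174 to 30132 CPM, with overlap. The part of these marker differences and of the ribosomal RNA share in the ribosomal protein result was not tested, except that 15 members were called without the ribosomal RNA genes, with a median of 0.45.

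In KCl the mutant was higher with a lower median, and 5 members rose past the test, or 4 of 80 without rpl-42. Here 80 of 81 fold changes were positive, with a median of 0.31 (large subunit 0.30, small subunit 0.32, stalk 0.36) beside 0.02 for all genes. The 5 called members are 6.17% of the family, fewer than the 15.2% of all genes called higher. At an unadjusted p under 0.05 there were 24 (29.6%), against 22.8% of all genes. That number was 6 without wild-type KCl replicate 3, and 8 and 7 without pmk-1 KCl replicates 1 and 3. It was 15 without wild-type NaCl replicate 2 and 47 without pmk-1 KCl replicate 2. The share of all genes at that level is not given for these fits. Non-overlapping groups were found for 20 (24.7%), against 24.9%. Without rpl-42 the shares are 5.0% by the adjusted test, 28.75% by the unadjusted p and 23.75% by overlap. The shares by the adjusted test and by overlap are thus under or near those of all genes.

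Apart from rpl-42, whose call is no support here either, the called genes in KCl were rpl-11.2, rps-17, rpl-22 and rpl-36. All 4 were also called in NaCl. For rps-17 the levels were 761, 750.5 and 571 CPM in wild-type KCl and 897, 958 and 1094 CPM in pmk-1 KCl, without overlap (log2 fold change 0.50 ± 0.14, edgeR adjusted p = 0.0252). For rpl-22, whose protein sits on the surface of the large subunit, they were 701, 691 and 517 and 861, 827 and 951 CPM, again without overlap (0.47 ± 0.15, edgeR adjusted p = 0.0388). The large-subunit gene rpl-36 had 836, 777 and 605 and 964, 1000.1 and 1044 CPM (0.44 ± 0.15, edgeR adjusted p = 0.0496). In each of the 3 genes the wild-type KCl replicate 3 was the lowest library. The gene rpl-29 had a fold change of 0.57 ± 0.22 with an adjusted p of 0.0752, and rpl-41.1 (-0.07 ± 0.16), rpl-7A (0.12 ± 0.20) and rpl-24.2 (0.14 ± 0.13) were again lowest. Leaving out 1 library at a time, rpl-11.2 and rps-17 each kept the call in 9 of 12 cases, rpl-22 in 5 and rpl-36 in 3. Without wild-type KCl replicate 2 or 3 all 4 lost it.

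The second pmk-1 KCl library set many of these values. It lay below the other pmk-1 KCl libraries in the score, at -0.19. Without it the groups did not overlap for 79 members, against 30.1% of all genes. Without wild-type KCl replicate 1 that number was 33, against 29.8% of all genes. The called number was 1 without wild-type KCl replicate 2 or 3 and 2 without pmk-1 KCl replicate 1 or 3. It was 3 without wild-type NaCl replicate 1 or 2, and 10 without pmk-1 NaCl replicate 1. It included rpl-42 each time, so without wild-type KCl replicate 2 or 3 no other member was called. The share of all genes called in these fits is not given. The median was 0.17 without wild-type KCl replicate 3. The scores differed by 0.21, -0.03 and 0.78 by replicate number, with 79, 33 and 80 of 80 genes higher in pmk-1.

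The member rpl-42 had a pattern of its own. It had no count in any of the 6 wild-type libraries, 15, 6 and 8 counts in pmk-1 KCl and 17, 13 and 6 counts in pmk-1 NaCl. As its 65 counts all lie in the mutant, the member rule let it in through that group, and its values are given as a description with no test. The sources used here do not show whether the counts came from transcripts of this gene or were assigned to it by mapping or annotation. Set against a floor of 3 counts over the 3 wild-type libraries, it was at least 13.9-fold higher in pmk-1 in NaCl and at least 9.76-fold higher in KCl. Its level in the mutant, 1.36 and 1.91 CPM per kb in KCl and NaCl, was far under that of any other member. The sperm genes, whose summed levels are given above, were high in the same 6 libraries and low in the others, and their part in this value was not tested.

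Pairs of genes with the same number in their names were compared within each library, where the scaling cancels. In 3 of the 4 pairs both genes encode the same ribosomal protein, and in the rpl-24 pair they encode related proteins. The ratio was tested by exact two-sided permutation, in which 3 against 3 libraries cannot give a p under 0.10, over 16 tests, none of which had a Benjamini-Hochberg adjusted p under 0.267. Of the reads of the rpl-11 pair, rpl-11.2 held 17.0, 17.4 and 21.3% in KCl and 18.2, 17.6 and 17.8% in NaCl in wild type, and 26.9, 23.6 and 20.5% in KCl and 29.2, 23.2 and 21.3% in NaCl in the mutant. In NaCl the mutant libraries were all above the wild type, 24.5 ± 4.12% against 17.9 ± 0.299% (SD, n = 3, exact permutation p = 0.10), whereas in KCl wild-type replicate 3 overlapped the mutant (p = 0.20, exact permutation). The first pmk-1 library had the highest share in each salt.

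For the rpl-25 pair, in which rpl-25.2 on chromosome I is the major copy, the share of rpl-25.2 was 85.3, 83.5 and 84.5% in wild-type NaCl and 78.5, 82.4 and 84.7% in pmk-1 NaCl, with overlap (exact permutation p = 0.30). In KCl it was 85.4, 86.6 and 82.8% in wild type and 79.1, 81.3 and 84.6% in the mutant (exact permutation p = 0.20). The means were lower in the mutant in both salts, by no more than the replicates overlapped.

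In the rpl-24 pair, no ratio passed the test between the salts (adjusted p = 0.267 by exact permutation in each genotype). The share of rpl-24.2, the gene related to the assembly factor, was 5.02, 5.56 and 6.71% in KCl and 4.96, 4.84 and 4.75% in NaCl in wild type, and 4.96, 5.38 and 5.16% in KCl and 4.38, 4.08 and 4.41% in NaCl in the mutant. In each genotype all NaCl libraries were below all KCl libraries (exact permutation p = 0.10 in each), the nearest in wild type being 4.96 and 5.02%, and in NaCl the mutant was below wild type (exact permutation p = 0.10). The level of rpl-24.2 itself was 69.1, 70.6 and 66.0 CPM in KCl and 73.5, 65.4 and 57.9 CPM in NaCl in wild type, and 76.2, 67.4 and 83.1 CPM in KCl and 93.4, 72.4 and 76.002 CPM in NaCl in the mutant, with overlap between every pair of groups compared. The partner rpl-24.1, a structural large-subunit gene, followed the rest of the family and was called between genotypes in NaCl (0.48 ± 0.16, edgeR adjusted p = 0.046).

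The copies rpl-41.1 and rpl-41.2 neighbour each other on chromosome I and have coding lengths of 66 bases each, the shortest of the family, so reads could be divided between them wrongly. For rpl-41.1 the levels were 96.2, 97.9 and 90.7 CPM in KCl and 94.3, 101 and 80.8 CPM in NaCl in wild type, and 66.3, 108 and 97.6 CPM in KCl and 74.8, 90.5 and 80.98 CPM in NaCl in the mutant and the groups overlapped in every comparison. For rpl-41.2 they were 904, 912 and 535 CPM in KCl and 1057, 880.3 and 619 CPM in NaCl in wild type, and 1043, 1077 and 1149 CPM in KCl and 1227, 1227 and 1102 CPM in NaCl in the mutant. The share of rpl-41.2 in the pair was 91.8, 89.7 and 88.5% in wild-type NaCl and 94.3, 93.1 and 93.2% in pmk-1 NaCl, and 90.4, 90.3 and 85.5% and 94.0, 90.9 and 92.2% in KCl. The mutant was above wild type without overlap in each salt (exact permutation p = 0.10 in each).

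**Figure D5:**
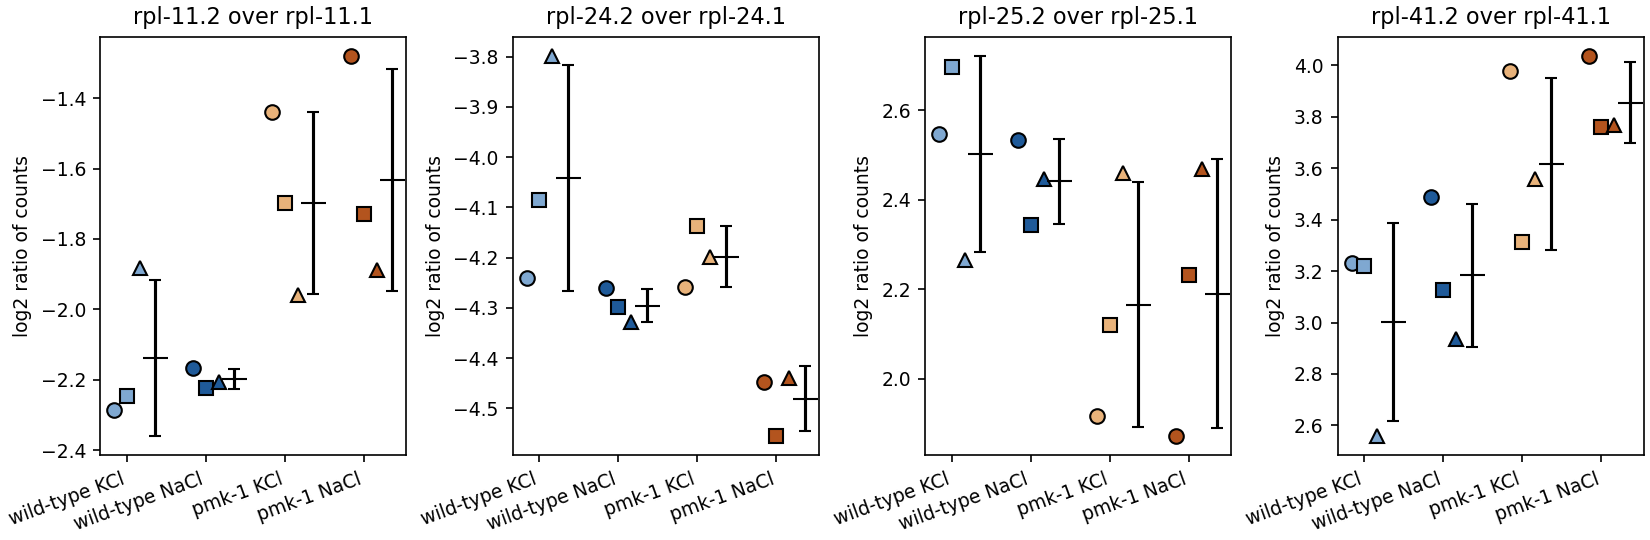
Log2 ratio of the counts of the genes of 4 pairs in each library, by group. Circles, squares and triangles are replicates 1, 2 and 3, and bars are means with SD (n = 3). In NaCl, rpl-11.2 over rpl-11.1 was -1.63 ± 0.32 in pmk-1 and -2.20 ± 0.03 in wild type, rpl-41.2 over rpl-41.1 was 3.85 ± 0.16 and 3.18 ± 0.28, and for rpl-24.2 over rpl-24.1 the NaCl libraries lie below the KCl libraries of the same genotype.

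Ribosomal proteins whose genes carry other names had the same order of groups. The gene ubq-2, which encodes ubiquitin fused to the large-subunit protein L40, had group means of 892 and 959 CPM in wild type in KCl and NaCl, and 1089 and 1365 CPM in the mutant. It was called between genotypes in NaCl (0.51 ± 0.16, edgeR adjusted p = 0.0380). The gene ubl-1, a ubiquitin-like fusion to the small-subunit protein S27a, had means of 943, 1076, 1119 and 1418 CPM and missed the threshold (0.40 ± 0.17, edgeR adjusted p = 0.107).

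The proteins of the mitochondrial ribosome are encoded by nuclear genes too, but serve the organelle. Their 70 genes had medians of 0.00 and 0.04 for the salts in wild type and pmk-1, and 0.16 and 0.09 for the genotypes in NaCl and KCl, where the cytosolic genes had 0.19, 0.36, 0.47 and 0.31. In each genotype comparison 1 of the 70 was called higher, mrps-18B in NaCl (0.44, edgeR adjusted p = 0.0245) and mrps-18A in KCl (0.71, adjusted p = 0.0281). The counts on cytosolic genes were 26.5 ± 2.74 times those on mitochondrial ones in wild type in KCl (SD, n = 3) and 30.8 ± 1.08 in NaCl, and 30.0 ± 4.36 and 38.3 ± 6.32 in the mutant. The ratio thus also had its highest mean in pmk-1 NaCl.

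Genes for building ribosomes had smaller medians than the ribosomal protein genes. Of 38 listed genes for ribosome biogenesis and the nucleolus, 32 were tested, with medians of -0.03 and 0.01 for the salts in wild type and pmk-1 and 0.16 and 0.10 for the genotypes in NaCl and KCl. Only pro-2 was called in NaCl (0.38, edgeR adjusted p = 0.0365), and only wdr-12, a large-subunit assembly factor, in KCl (0.39, adjusted p = 0.0203). The 7 RNA polymerase I genes had medians of -0.07, 0.04, 0.12 and 0.19 in the same order, and tif-1A, an initiation factor for ribosomal RNA synthesis, was called in NaCl (0.43, edgeR adjusted p = 0.0262).

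Translation factors differed by class. The 9 tested elongation and release factors had medians of 0.15, 0.28, 0.18 and 0.00 in the order salts in wild type and pmk-1, genotypes in NaCl and KCl, and iff-2, a form of the factor eIF5A, was called between genotypes in NaCl (0.80, edgeR adjusted p = 0.0213). The 29 initiation factors had medians of 0.05, 0.15, 0.04 and -0.08. None of them was called higher; ife-2, a cap-binding protein, was called lower in NaCl (-0.55, edgeR adjusted p = 0.0157) and with 3 others in KCl, among them ife-4 (-1.45, adjusted p = 0.00662) and pab-2 (-0.72, adjusted p = 0.0224). The 20 aminoacyl-tRNA synthetases, which charge tRNAs, had medians of 0.11, 0.28, 0.11 and -0.06. In the pmk-1 salt comparison sars-1 (0.66, edgeR adjusted p = 0.0198), nars-1 (0.54, adjusted p = 0.0441) and pars-1 (0.52, adjusted p = 0.0442) rose.

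Known regulators of translation and ribosome production were examined as well. The 18 genes of this list, from the TOR pathway and its partners, had medians of 0.00, -0.05, -0.15 and -0.09 in the same order. In pmk-1 animals, atf-4, the transcription factor of the integrated stress response, rose from a mean of 60.7 CPM in KCl to 108 CPM in NaCl (0.84 ± 0.11, edgeR adjusted p = 0.00186). With it rose pek-1, the eIF2α kinase of the endoplasmic reticulum, from 65.0 to 95.0 CPM (0.55 ± 0.11, adjusted p = 0.0182). Between genotypes, atf-4 was called higher in pmk-1 in NaCl (0.63 ± 0.11, edgeR adjusted p = 0.00394), and mml-1, a Mondo-like transcription factor, was called lower in KCl (-0.56 ± 0.14, adjusted p = 0.0150).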

How the data were processed

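Whole-animal RNA of 12 libraries was analysed in 4 groups of 3. The deposited table gives estimated counts per gene and library, all whole numbers as deposited. Per the submitters' processing notes, the programs were DESeq2 1.40.2, R 4.3.1, RSEM 1.3.3 and STAR 2.7.1a. What each did, the genome build, the annotation and the strandedness are not given here. Reads of near-identical copies, or of genes that overlap on opposite strands (11 members), may have been counted for the wrong gene.

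Counts were filtered with filterByExpr (13353 genes kept), scaled by TMM (factors 0.903 to 1.13) and fitted over all groups with the edgeR 4.0.16 quasi-likelihood test in R 4.3.3 (limma 3.58.1), which was tested on simulated data. The standard error is the fold change divided by the square root of F. The biological coefficient of variation had a median of 0.159 over members and 0.244 over all genes. DESeq2 1.42.0, another scaling, no filter, a replicate block and leaving out libraries or genes were alternatives. Exon and coding lengths, chromosomes and overlaps came from the Ensembl release 115 annotation of WBcel235, and lists were matched by gene symbol. Within every pair of replicates of a group, counts differed beyond sampling noise.

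The members and lists were chosen with earlier results of these data known. Named members are the 20 called at the smallest adjusted p, the 3 highest and 3 lowest fold changes per comparison and levels per kb, the stalk genes and the paralog pairs; of other lists, called genes up to 3 per comparison. Others were named after their values were seen.

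The replicate numbers come from the labels. Each gene was centred on its group mean. Same-numbered libraries then correlated over 0.1 in all 3 pairs for the salts (0.197 to 0.629 in wild type, 0.391 to 0.743 in pmk-1). So they did for the genotypes in NaCl (0.226 to 0.423), and these comparisons met the rule set for pairing. The genotypes in KCl missed it (0.431, 0.0717 and 0.334). Libraries numbered 2 and 3 also correlated across groups. The values were 0.0406 and 0.256 for the salts in wild type and 0.410 and 0.520 in pmk-1. Between genotypes they were 0.243 and 0.216 in NaCl and 0.0733 and 0.279 in KCl. Pairing by number is thus not established for replicates 2 and 3. The main fit used no pairing, so its p-values take no account of any that exists. Between genotypes in NaCl it called 28 members, against 65 with the replicate number as a block.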

Additional observations from a re-analysis of the deposited data

How the results depend on the processing

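Members called higher in pmk-1 in NaCl numbered 28, against 13 with no filter on low counts, 65 with the replicate block, 11 without the first replicates, 15 without ribosomal RNA genes, 16 with the members left out of the scaling and 57 with DESeq2. In KCl they numbered 5, against 3 with no filter and 20 without the first replicates. They numbered 2 with only the groups compared in the fit and 15 with DESeq2. With the replicate block they numbered 17 in KCl, where same-numbered libraries missed the rule for pairing. The counts for NaCl and KCl include rpl-42 wherever it was tested. The share of all genes called is not given for the alternatives, so these counts were not set against it. The block called no member in the salt comparisons or the interaction and changed no other call. Without the first replicates, members with non-overlapping groups numbered 4 in the wild-type salt comparison, against 1 with all libraries. Between genotypes in KCl they numbered 33, against 20 with all. These counts were chosen after seeing the data. The share of all genes with non-overlapping groups also rose in both comparisons, so the rises were not particular to the members. The members' share stayed under that of all genes for the wild-type salts and was a little over it in KCl.

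Leaving out 1 library at a time gave 2 to 50 calls and medians of 0.33 to 0.54 between genotypes in NaCl. In KCl it gave 1 to 10 calls and medians of 0.17 to 0.41. These calls include rpl-42, and the share of all genes called in these fits is not given. Medians were 0.05 to 0.28 for the salts in wild type, 0.19 to 0.39 in pmk-1, and -0.01 to 0.27 for the interaction, which reversed to -0.0125 without pmk-1 NaCl replicate 1; the cause was not tested. Calls in the salt comparisons and the interaction, and calls lower in every comparison, stayed at 0. Non-overlapping members numbered 1 to 42, 63 to 71, 74 to 80 and 20 to 79 (salts in wild type and pmk-1, genotypes in NaCl and KCl). The share of all genes with non-overlapping groups also rose whenever a library of the groups compared was left out. Shares of counts were 7.86 to 9.11%, 8.76 to 9.62%, 10.2 to 10.9% and 10.97 to 12.2% (wild-type KCl and NaCl, pmk-1 KCl and NaCl).

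Of the values of single genes under the alternatives, 874 kept their side of the threshold, 268 lost the call and 4 gained it. No value called in either fit changed sign. A change of sign where neither fit called the gene was counted as kept. The identity of paralog coding sequences, planned as a check, was not computed because no genome sequence was used here. With 3 libraries a group, an exact permutation p cannot go under 0.10.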
